A study of Mus musculus with 12 samples.

Results

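G protein-coupled receptors carried by basophils and their precursors in the mouse were examined in bulk RNA sequencing counts. The receptor genes were chosen by symbol, as adhesion (Adgr), prostanoid (Ptger, Ptgdr, Ptgir), leukotriene (Cysltr, Ltb4r), lysophosphatidic acid (Lpar), adenosine (Adora), P2Y (P2ry), histamine (Hrh), Mas-related (Mrgpr), hydroxycarboxylic acid (Hcar) and numbered Gpr genes, and by a sum of at least 30 counts over all libraries. The symbols matched 135 rows, of which 85 of the 32227 genes in the table met the count minimum. Chemokine, formyl peptide and other receptors with different symbols lie outside this choice, and a few numbered Gpr genes (Gpr107, Gpr108, Gpr137, Gpr89, Gpr155) encode membrane proteins that are not classical receptors. The libraries came from C57BL/6J WT mice without any treatment, and no age is given in the labels. There were 4 groups of 3 libraries: CD34+ basophil progenitors (BaPs) from the bone marrow, CD34- CLEC12A-high CD9-low pre-basophils from the bone marrow (named immature basophils in the labels), CLEC12A-low CD9-high mature basophils from the bone marrow (BM mature basophils), and mature basophils of the same surface type from the spleen. Each library was made from cells pooled from 4 animals, all in the CD200R3+ cKit- gate, so the spread between libraries is that between pools of 1 experiment.

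Receptors of this class cross the membrane several times and pass a ligand signal to a heterotrimeric G protein. Gs-coupled receptors raise cyclic AMP through adenylyl cyclase, Gi-coupled receptors lower it and can direct migration, and Gq-coupled receptors act through phospholipase C and calcium. On basophils and mast cells, receptors for histamine, prostaglandins, adenosine, nucleotides and leukotrienes are known to adjust degranulation, cytokine release and movement, beside the IgE receptor, and Mas-related receptors sense peptides and drugs.

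The libraries held 3596108 to 8151030 counts, and the receptor genes took 0.167% to 0.194% of them. Levels are given as CPM, read counts relative to the scaled size of a library. Basophil markers in pre-basophils summed to 60800 to 69600 CPM, against 10800 to 13400 in BM mature and 5340 to 6100 in spleen mature cells. In BaPs they summed to 67550, 62520 and 24990 CPM, and the lowest of these, BaP replicate 3, stood apart from the other BaP libraries. It held 526.5 CPM of NK cell markers, against 2.389 and 5.422 CPM in BaP replicates 1 and 2, and 2403 CPM of erythroid markers, against 8.839 and 11.32. Mast cell markers summed to at most 5.31 CPM outside BaPs and to 12.66, 8.251 and 37.38 CPM in BaPs. All 6 NK cell markers were higher in it than in both other BaP libraries. Calls between BaPs and pre-basophils are therefore given with and without this library. In bulk counts, fewer cells of a type and less RNA per cell cannot be told apart. By single-cell RNA sequencing, the paper reports less Fcer1a, Mcpt8 and Prss34 in mature than in CLEC12A-high basophils.

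Adhesion receptors took 43.8% of the receptor counts, without regard to gene length, followed by the numbered Gpr genes with 21.3%, the P2Y receptors with 11.3% and the prostanoid receptors with 7%. Levels were also taken per kilobase of exon, with the length of all annotated exons of a gene joined. Whether counts rise with length in this protocol was not tested, so the order of genes below may come from the division itself. On this scale Adgre5 (CD97, an adhesion receptor for CD55) had the highest mean level over the 12 libraries, at 77.4 CPM per kb. Next came Adgrg3 (GPR97, a granulocyte adhesion receptor) at 43.5, Gpr183 (EBI2, which guides cells along oxysterol gradients) at 43.0, Adora2b (a Gs-coupled adenosine receptor) at 42.2, Hcar2 (the receptor for niacin and beta-hydroxybutyrate) at 40.9, Ltb4r1 (BLT1, the high-affinity receptor for leukotriene B4) at 38.7 and Adgrg1 (GPR56) at 29.3 CPM per kb. The order changed with the stage. Per kilobase, Adora2b led in pre-basophils at 76.0 CPM per kb, with Adgre5 and Ltb4r1 next at 60.6 and 60.2. By CPM without regard to length, Adgre5 stood above Adora2b in every pre-basophil library. In spleen mature basophils Adgre5 reached 127 CPM per kb and Gpr183 71.1, whereas Adora2b stood at 22.5. At the other end, 25 of the 85 receptor genes had under 100 counts in all 12 libraries together.

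**Figure D1:**
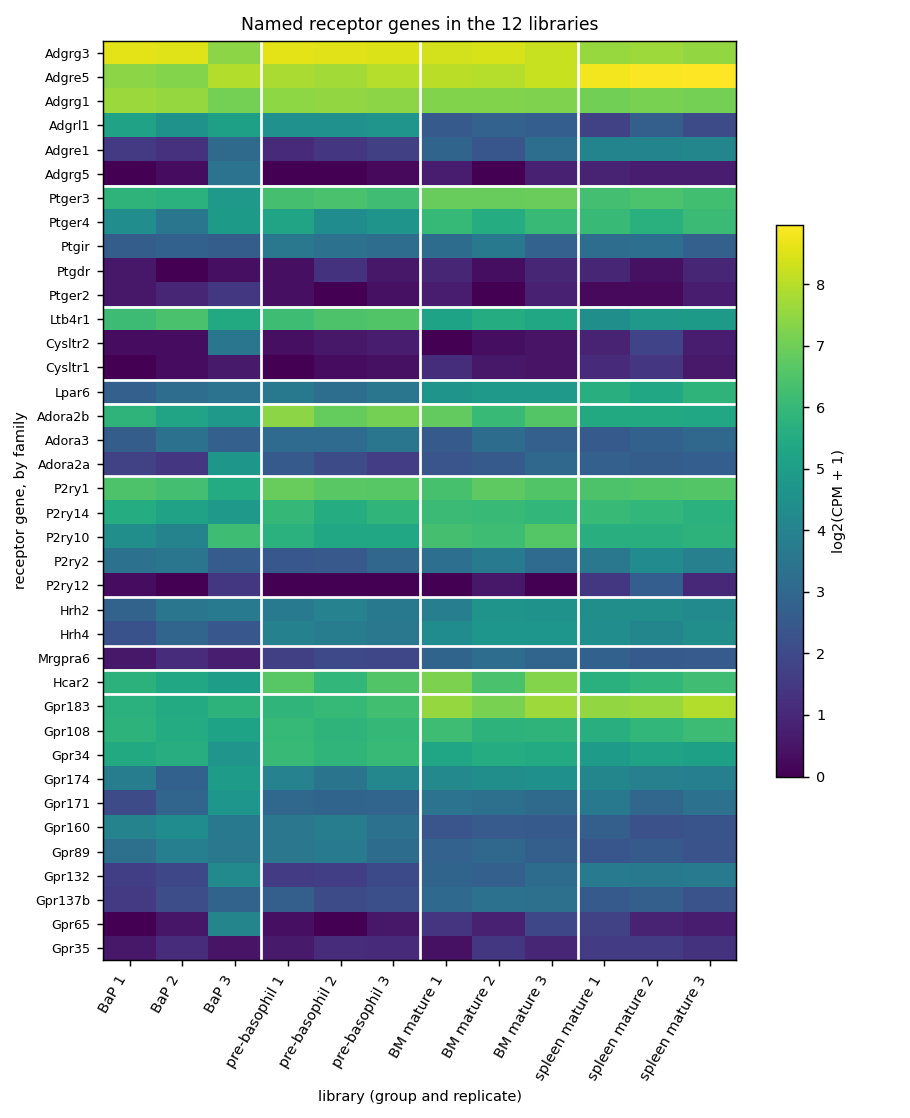
Level of the 38 receptor genes named in the text (rows, grouped by family) in each of the 12 libraries (columns), as log2(CPM + 1). Adgrg3, Adgre5 and Adgrg1 form the bright rows at the top, Gpr183 brightens from pre-basophils to mature basophils, and in the column of BaP replicate 3 the otherwise dark rows of Gpr65, Adgrg5 and Cysltr2 light up.

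BaPs were compared with pre-basophils, which differ from them by CD34 in the sort. The paper predicts that BaP-like cells form part of the pre-basophil population, and an order between these groups was not tested here. The adenosine receptor Adora2b, the histamine receptor Hrh4, the prostaglandin E2 receptor Ptger3 and the niacin receptor Hcar2 were lower in BaPs, and so were the UDP-sugar receptor P2ry14, the lysophosphatidylserine receptor Gpr34 and the Mas-related receptors Mrgpra6 and Mrgpra1. Of the 59 receptor genes that passed the filter on low counts, 8 (13.6%) passed an adjusted p of 0.05 in the quasi-likelihood test of edgeR, where 7.08% of all 15083 tested genes did. All 8 were lower in BaPs, where 4.29% of all tested genes were lower, and 0 were higher, where 2.79% were. At an unadjusted p under 0.05, 7 receptor genes were higher and 15 lower. DESeq2 and limma-voom each called 1 receptor gene higher and 8 lower. The shares of all tested genes at that threshold and by these methods are not given here. The median log2 fold change was -0.26 for the 59 receptor genes and 0.02 for all tested genes.

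Adora2b stood at 56.6, 36.3 and 27.3 CPM in BaP replicates 1 to 3 and at 169, 116 and 136 CPM in pre-basophils. Every BaP library lay below every pre-basophil library, with a log2 fold change of -1.82 (SE 0.25, adjusted p 0.00098), a level 3.54-fold lower in BaPs. Without BaP replicate 3 the log2 fold change was -1.58 (adjusted p 0.000121). Hrh4, the Gi-coupled histamine receptor of blood cells, stood at 3.82, 6.60 and 4.45 CPM in BaPs and at 14.5, 12.9 and 11.2 CPM in pre-basophils. The groups did not overlap, and Hrh4 was 2.61-fold lower in BaPs (log2 fold change -1.38, SE 0.22, adjusted p 0.00292), or -1.27 on the log2 scale without BaP replicate 3 (adjusted p 0.00423). Mrgpra6 was at 0.478, 1.18 and 0.678 CPM in BaPs, close to what 3 counts give in these libraries (0.290 to 0.717 CPM), and at 2.24, 2.92 and 2.72 CPM in pre-basophils. Its log2 fold change was -1.77 (SE 0.36, adjusted p 0.0114), or -1.64 without BaP replicate 3 (adjusted p 0.0361). Mrgpra1, with means of 0.732 and 2.53 CPM in these groups (log2 fold change -1.99, adjusted p 0.0331), is named here after its values were seen. It lost its call without BaP replicate 3 (-1.40, adjusted p 0.104).

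Ptger3 encodes EP3, a prostaglandin E2 receptor mostly coupled to Gi. It stood at 56.1, 52.3 and 27.0 CPM in BaPs and at 79.9, 84.0 and 74.2 CPM in pre-basophils, with a log2 fold change of -0.83 (SE 0.20, adjusted p 0.0272). The lowest value was that of BaP replicate 3, and without it the difference was -0.54 on the log2 scale (adjusted p 0.00485). Hcar2 was at 53.5, 40.3 and 31.0 CPM in BaPs and 99.2, 59.9 and 91.3 CPM in pre-basophils (log2 fold change -1.02, SE 0.27, adjusted p 0.0351), again without overlap, and the difference was -0.82 on the log2 scale without BaP replicate 3 (adjusted p 0.0414). Gpr34 had 42.5, 47.6 and 24.7 CPM in BaPs against 65.4, 57.7 and 64.3 CPM (log2 fold change -0.73, adjusted p 0.0393), and -0.46 without BaP replicate 3 (adjusted p 0.0311). P2ry14 had 45.9, 34.7 and 27.6 CPM in BaPs against 62.1, 45.8 and 57.7 CPM (log2 fold change -0.63, adjusted p 0.0475, and -0.45 without BaP replicate 3), and here the groups touched. Without any 1 of the 3 pre-basophil libraries, those of Ptger3, Gpr34 and P2ry14 were lost, with adjusted p-values up to 0.101, 0.133 and 0.185, and P2ry14 was also lost without BaP replicate 2 or BaP replicate 3 (0.0794 without the latter). That of Hcar2 was lost without BaP replicate 2 or pre-basophil replicate 1 or 3, with an adjusted p of up to 0.139. The count itself was 3 without pre-basophil replicate 1 or 3, 4 without replicate 2, 14 without BaP replicate 1 and 10 without BaP replicate 3. Without BaP replicate 3, 12.4% of all tested genes were called. In that fit Gpr180, named here after its values were seen, was higher in BaPs (log2 fold change 0.93, adjusted p 0.0352). Shares of all tested genes in the other fits are not given here. The 13 stress-response and immediate early genes examined did not overlap between these groups in their sum, which was 21800 to 29200 CPM in BaPs and 42700 to 48700 CPM in pre-basophils, and platelet and megakaryocyte markers summed to 410 to 492 and 512 to 596 CPM. The part of these differences in the BaP results was not tested.

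P2ry10, a receptor of the lysophosphatidylserine family, showed how far BaP replicate 3 reached. It stood at 20.8, 15.1 and 71.2 CPM in BaPs and at 52.5, 39.4 and 39.7 CPM in pre-basophils. With all libraries the log2 fold change was -0.24 (adjusted p 0.788). Without BaP replicate 3 it was -1.27 (adjusted p 0.000305). Adgre5, at 167, 158 and 243 CPM in BaPs and 226, 208 and 249 CPM in pre-basophils, moved from -0.26 (adjusted p 0.333) to -0.48 (adjusted p 0.00993) when this library was left out. P2ry1, a Gq-coupled ADP receptor, was at 87.2, 78.0 and 45.2 CPM in BaPs and 116, 102 and 97.7 CPM in pre-basophils, and it did not pass the test with or without that library (adjusted p 0.0812 and 0.0975).

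The step from pre-basophils to mature basophils was examined within the bone marrow. Gpr183, the lysophosphatidic acid receptor Lpar6, the prostaglandin E2 receptors Ptger4 and Ptger3, Hrh4, Mrgpra6 and the adhesion receptor Adgre1 (the F4/80 antigen) were higher in mature cells, by 1.5-fold (Ptger3) to 3.62-fold (Adgre1). Gpr137b and Adgrg6, given below, were also called higher in mature cells, and Adgrg6 had the largest change of these (log2 fold change -2.91). In the other direction, the adhesion receptor Adgrl1 (latrophilin 1), the leukotriene B4 receptor Ltb4r1, the orphan Gpr160 and Gpr89, which encodes a Golgi pH regulator, were higher in pre-basophils, by 1.65-fold (Gpr89) to 4.25-fold (Adgrl1). Of the 59 receptor genes tested, 13 (22%) were called, where 27.3% of all tested genes were. They split into 4 higher in pre-basophils, where 16.3% of all tested genes were, and 9 lower, where 11.0% were. The median log2 fold change was -0.32, against 0.00 over all tested genes. When library size alone was used for scaling, 7 were called higher and 7 lower, and the median of all tested genes moved to 0.22. The scaling scheme that recomputes factors without called genes gave 6 higher and 7 lower. Without BaP replicate 3, which is in neither group but enters the common estimate of spread, 23 were called, 6 higher and 17 lower, where 35.7% of all tested genes were called. Without pre-basophil replicate 2, 8 were called. The share of all tested genes called is not given here for that fit or for the other scalings.

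Gpr183 stood at 57.3, 63.5 and 75.2 CPM in pre-basophils and at 185, 143 and 199 CPM in BM mature basophils. The groups were far apart, with a log2 fold change of -1.42 (SE 0.16, adjusted p 3.18e-05), a level 2.68-fold higher in mature cells. The spleen libraries stood at 180, 193 and 243 CPM, in the range of BM mature cells or above, and the BaP libraries at 51.6, 44.1 and 54.7 CPM, all below pre-basophils. The gene lies on chromosome 14 (GRCm38, 121952551 to 121965195, minus strand). Lpar6, a receptor for lysophosphatidic acid coupled to G12/13 proteins, followed the same order at a lower level, with 11.5, 8.52 and 10.6 CPM in pre-basophils and 23.9, 28.0 and 27.3 CPM in BM mature cells (log2 fold change -1.38, SE 0.20, adjusted p 0.000189). It lies in an intron of Rb1, on the other strand, and 408 of its exon bases overlap Rb1 exons, so its counts may hold reads of that gene.

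Ptger4 encodes EP4, the Gs-coupled prostaglandin E2 receptor. It stood at 36.3, 19.5 and 24.0 CPM in pre-basophils and at 62.7, 46.3 and 65.7 CPM in BM mature basophils (log2 fold change -1.14, SE 0.30, adjusted p 0.0111). The pools did not overlap, but the call was lost without pre-basophil replicate 2 (adjusted p 0.059). Its partner Ptger3 went from 79.9, 84.0 and 74.2 CPM to 117, 118 and 121 CPM (log2 fold change -0.58, SE 0.20, adjusted p 0.0428), a call that was lost without any 1 of the 6 libraries of these groups, with an adjusted p of up to 0.128. Without BaP replicate 3 the same difference had an adjusted p of 0.000123. Ptgir, the prostacyclin receptor, stood at 8.32 to 11.2 CPM in pre-basophils and 5.99 to 11.3 CPM in BM mature cells and was not called in any pairwise comparison. Ptger2 and Ptgdr had means of 0.200 to 1.05 CPM in every group and did not pass the filter.

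Hrh4 was called in this comparison too, with 19.4, 25.0 and 25.5 CPM in BM mature basophils (log2 fold change -0.87, SE 0.20, adjusted p 0.00564). It was therefore called in both comparisons, with a mean of 4.96 ± 1.46 CPM (SD, n = 3) in BaPs, 12.9 ± 1.67 in pre-basophils and 23.3 ± 3.38 in BM mature cells. Mrgpra6 likewise passed the test in both comparisons, and reached 6.36, 8.26 and 6.55 CPM in BM mature basophils (log2 fold change -1.41, SE 0.29, adjusted p 0.00255). Both pairs of calls held without any 1 library of the compared groups and without BaP replicate 3, with adjusted p-values up to 0.0492. Hrh2, the Gs-coupled histamine receptor, stood at 11.7, 14.6 and 11.4 CPM in pre-basophils and 13.4, 23.8 and 22.7 CPM in BM mature cells (log2 fold change -0.68, adjusted p 0.0603). In the fit with the replicate number as a block, Hrh2 passed (adjusted p 0.0403), and so it did without BaP replicate 3 (0.0194). The remaining receptors lower in pre-basophils were Adgre1, with 1.12, 1.70 and 2.24 CPM against 6.36, 4.26 and 8.42 CPM (log2 fold change -1.86, adjusted p 0.021), Gpr137b (-1.08, adjusted p 0.0425) and Adgrg6 (-2.91, adjusted p 0.00229), named here after its values were seen. Leaving out BM mature replicate 3, or replicate 1 or 2 of the pre-basophils, lost the call of Adgre1, with an adjusted p of up to 0.0939. That of Gpr137b was lost with the replicate block (adjusted p 0.052) and without any of 5 of these 6 libraries, all but pre-basophil replicate 1, with an adjusted p of up to 0.145.

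Among the receptors higher in pre-basophils, Adgrl1 differed most. It stood at 22.4, 22.2 and 24.8 CPM in pre-basophils and at 4.77, 6.01 and 5.43 CPM in BM mature cells (log2 fold change 2.09, SE 0.26, adjusted p 6.72e-05). Its level in BaPs was 34.9, 23.6 and 33.2 CPM, so the 6 immature libraries lay apart from the 6 mature ones. It overlaps 2 predicted genes on the opposite strand, by 1107 exon bases at most. Ltb4r1 had 72.1, 87.4 and 92.3 CPM in pre-basophils against 35.6, 45.6 and 40.2 CPM (log2 fold change 1.05, SE 0.22, adjusted p 0.00268), and Gpr160 had 10.9, 12.7 and 9.12 CPM against 4.14, 5.01 and 4.87 CPM (log2 fold change 1.20, SE 0.27, adjusted p 0.00473). For both genes the groups did not overlap. These 2 calls and that of Adgrl1 held without any 1 library of the compared groups and without BaP replicate 3. Gpr89, at 10.9, 12.2 and 8.0 CPM against 6.05, 7.01 and 5.62 CPM (log2 fold change 0.72, adjusted p 0.0405), lost its call without any of 5 libraries, all but pre-basophil replicate 3, with an adjusted p of up to 0.144. Adora2b and Gpr34 stood higher in pre-basophils with adjusted p-values of 0.0609 and 0.0507 (log2 fold changes 0.64 and 0.55). Both passed with the replicate block (0.0164 and 0.0432) and without BaP replicate 3 (0.0085 and 0.00142).

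**Figure D2:**
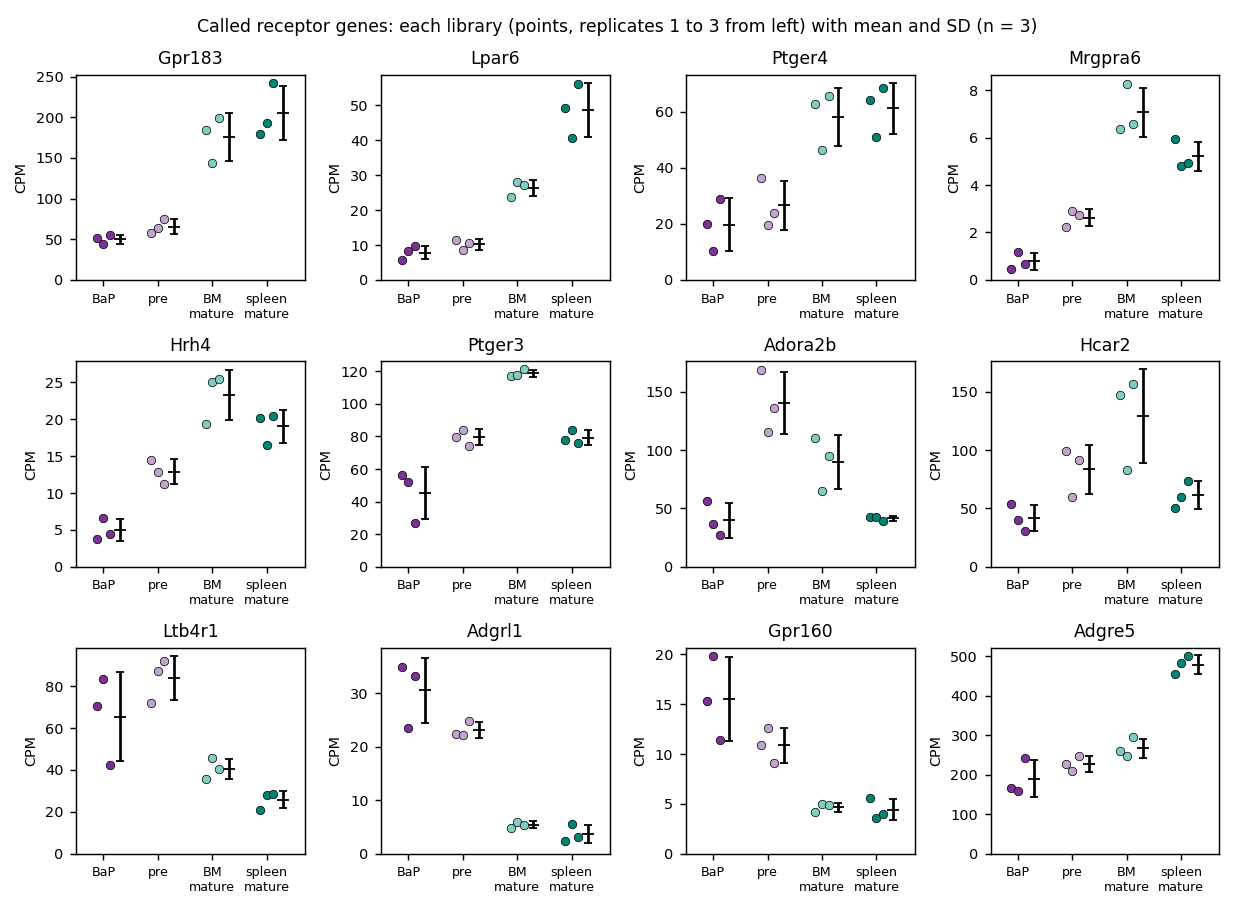
CPM of 12 called receptor genes in every library (points, replicates 1 to 3 from left to right in each group) with the mean and SD of each group (n = 3, bar beside the points), on axes that start at 0. Gpr183, Lpar6 and Ptger4 sit low in BaPs and pre-basophils and high in both mature groups, Adgrl1 and Gpr160 the other way round, and Adora2b is highest in pre-basophils at 116 to 169 CPM.

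Markers of other cells differed between these groups as well. Monocyte and macrophage markers summed to 80.5 to 106 CPM in pre-basophils and 198 to 240 CPM in BM mature basophils, of which Ccr2, also expressed by basophils, took 176 to 215 CPM in the latter. The macrophage receptor Csf1r was at 2.68 to 5.92 CPM in pre-basophils and 1.59 to 2.62 CPM in BM mature cells, and Marco was at 0 in every library of both groups. The other markers of this list, and Ccr2 in pre-basophils, are not given singly here. The markers given were picked from 10, so they do not show which cells the higher sum came from. Neutrophil markers summed to 442 to 2010 CPM in pre-basophils and 261 to 297 CPM in BM mature cells. Erythroid markers summed to 42.8 to 56.0 CPM and 184 to 203 CPM, and NK cell markers to 5.11 to 13 CPM and 15.3 to 42.3 CPM. The stress-response and immediate early genes stood at 42700 to 48700 CPM in pre-basophils and 94200 to 114000 CPM in BM mature cells. The part of these differences in the receptor results was not tested.

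The sequence before the start of 6 of these genes is shown to set the receptors that were higher in mature cells (Gpr183, Lpar6, Ptger4) beside those that were higher in pre-basophils (Ltb4r1, Gpr160, Adgrl1). These are the named receptors that changed at least 2-fold in this comparison and had 1 entry in the RefSeq promoter table for GRCm38.p6, which held 63 of the 85 receptor genes. Each line gives the 250 bases before the start, 5′ to 3′ on the strand of the gene. Capitals mark matches, on either strand, to the GATA motif (AGATAA or TGATAA), the RUNX motif (TGTGGT), the C/EBP motif (TTGCNNAA) or the STAT motif (TTCNNNGAA), motifs of factor families that act in basophil development.
Gpr183: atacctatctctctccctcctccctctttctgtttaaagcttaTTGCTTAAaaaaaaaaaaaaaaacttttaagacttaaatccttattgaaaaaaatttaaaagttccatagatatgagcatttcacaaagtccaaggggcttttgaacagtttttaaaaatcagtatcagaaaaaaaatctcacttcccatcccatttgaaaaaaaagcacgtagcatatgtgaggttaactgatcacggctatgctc
Lpar6: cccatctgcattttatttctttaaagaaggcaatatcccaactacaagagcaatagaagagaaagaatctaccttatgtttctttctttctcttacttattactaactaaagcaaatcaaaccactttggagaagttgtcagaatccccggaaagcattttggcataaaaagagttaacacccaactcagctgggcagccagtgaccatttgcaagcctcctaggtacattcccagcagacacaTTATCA
Ptger4: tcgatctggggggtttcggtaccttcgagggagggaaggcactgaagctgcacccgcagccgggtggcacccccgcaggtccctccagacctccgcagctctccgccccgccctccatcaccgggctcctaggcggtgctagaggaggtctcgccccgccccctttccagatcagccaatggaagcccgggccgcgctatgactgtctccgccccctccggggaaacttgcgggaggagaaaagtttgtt
Ltb4r1: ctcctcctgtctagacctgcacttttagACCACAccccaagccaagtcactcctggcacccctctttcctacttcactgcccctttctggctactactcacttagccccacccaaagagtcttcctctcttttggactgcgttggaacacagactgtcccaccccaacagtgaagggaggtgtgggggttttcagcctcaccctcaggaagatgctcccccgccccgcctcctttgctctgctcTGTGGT
Gpr160: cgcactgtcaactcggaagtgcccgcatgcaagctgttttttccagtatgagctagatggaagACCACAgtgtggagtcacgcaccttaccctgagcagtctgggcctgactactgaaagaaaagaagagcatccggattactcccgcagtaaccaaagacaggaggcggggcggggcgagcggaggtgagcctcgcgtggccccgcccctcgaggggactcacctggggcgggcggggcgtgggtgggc
Adgrl1: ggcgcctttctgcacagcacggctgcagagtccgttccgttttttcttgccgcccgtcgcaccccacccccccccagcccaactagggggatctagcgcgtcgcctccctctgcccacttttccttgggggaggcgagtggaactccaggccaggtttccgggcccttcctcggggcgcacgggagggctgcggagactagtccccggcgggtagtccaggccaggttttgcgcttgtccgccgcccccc
The stretches lie at chr14:121965194-121965443 (Gpr183, minus strand), chr14:73237641-73237890 (Lpar6, plus), chr15:5244188-5244437 (Ptger4, minus), chr14:55765712-55765961 (Ltb4r1, plus), chr3:30855700-30855949 (Gpr160, plus) and chr8:83899848-83900097 (Adgrl1, plus). Gpr183 held 1 C/EBP match, 207 bases before the start. Lpar6 held 1 GATA match, 6 bases before it. Ltb4r1 held 2 RUNX matches, 222 and 6 bases before the start, and Gpr160 held 1, 187 bases before it. Ptger4 and Adgrl1 held none of these letters in the window. Of all 32851 promoters of the table, read over the same length, 16.6% held the GATA letters, 14% the RUNX letters, 9.56% the C/EBP letters and 7.02% the STAT letters. The matches are a description of the letters, and binding was not measured.

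Mature basophils of the spleen were compared with those of the bone marrow, cells of the same surface type in different tissues. Adgre5 and Lpar6 were higher in the spleen, and Adora2b and Hcar2 were lower there. These 4 were 6.78% of the 59 receptor genes tested, where 7.83% of all tested genes were called. The 2 higher ones stood against 3.16% of all tested genes, and the 2 lower ones against 4.67%. The median log2 fold change was -0.06 for the receptor genes and 0.01 for all tested genes. Without BaP replicate 3, which is in neither group, 15 receptor genes were called, 6 higher and 9 lower, where 18% of all tested genes were called.

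Adgre5 stood at 260, 248 and 294 CPM in BM mature basophils and at 454, 482 and 500 CPM in the spleen. The spleen libraries lay above all 9 others, and the log2 fold change was 0.84 (SE 0.15, adjusted p 0.00737), 1.79-fold higher. This call held without any 1 library of the compared groups and without BaP replicate 3 (adjusted p up to 0.0447). Exons of Adgre5 (chromosome 8, 83723251 to 83741326) overlap those of Ddx39 on the opposite strand by 895 bases. Lpar6 had 49.1, 40.8 and 56.0 CPM in the spleen (log2 fold change 0.88, SE 0.18, adjusted p 0.0119), so that its mean was highest there and lowest in BaPs. The call was lost without BM mature replicate 1 or spleen replicate 3 (adjusted p up to 0.0679).

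Adora2b had 111, 64.6 and 94.5 CPM in BM mature cells and 42.6, 42.4 and 39.3 CPM in the spleen (log2 fold change -1.12, SE 0.24, adjusted p 0.0175). Its mean thus went from 40.1 ± 15.0 CPM in BaPs (46.5 without replicate 3) to 140 ± 26.8 in pre-basophils, then 90.0 ± 23.4 in BM mature cells and 41.4 ± 1.84 in those of the spleen (SD, n = 3). BaP and spleen libraries overlapped. Hcar2 had 147, 82.9 and 157 CPM in BM mature cells and 50.6, 59.9 and 73.8 CPM in the spleen (log2 fold change -1.07, SE 0.26, adjusted p 0.0266). The Adora2b call was lost without BM mature replicate 1 or 3 or spleen replicate 2 or 3 (adjusted p up to 0.0872), and that of Hcar2 without BM mature replicate 1 or 3 or any 1 spleen library (up to 0.104). The number of receptor genes called was 1 without BM mature replicate 1 or spleen replicate 3, and 2 without BM mature replicate 3 or spleen replicate 2. Shares of all tested genes in these fits are not given here.

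Several receptors did not pass this test but did when BaP replicate 3 was left out. Adgrg3 stood at 327, 345 and 300 CPM in BM mature and 191, 203 and 184 CPM in spleen mature basophils, without overlap (log2 fold change -0.75, adjusted p 0.0576, and 2.38e-05 without BaP replicate 3). Ptger3, at 117, 118 and 121 CPM against 78.1, 84.2 and 75.7 CPM, had adjusted p-values of 0.0877 and 0.000438. Adgre1, at 6.36, 4.26 and 8.42 CPM against 15.7, 15.5 and 16.2 CPM, had 0.0865 and 0.00115. For Ltb4r1 and P2ry10, both lower in the spleen by level, these values were 0.0883 and 0.00472, and 0.289 and 0.00225. B cell markers summed to 215 to 372 CPM in the spleen libraries and 40.4 to 55.8 CPM in BM mature ones, with Cd79a at 18.2 to 41.8 and 2.23 to 4.68 CPM. Platelet and megakaryocyte markers summed to 699 to 1030 CPM in the spleen and 579 to 655 CPM in BM mature libraries, with Ppbp at 73.4 to 175 and 10.3 to 11.5 CPM, and the stress-response and immediate early genes to 115000 to 136000 and 94200 to 114000 CPM. The part of these differences in the spleen results was not tested.

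**Figure D3:**
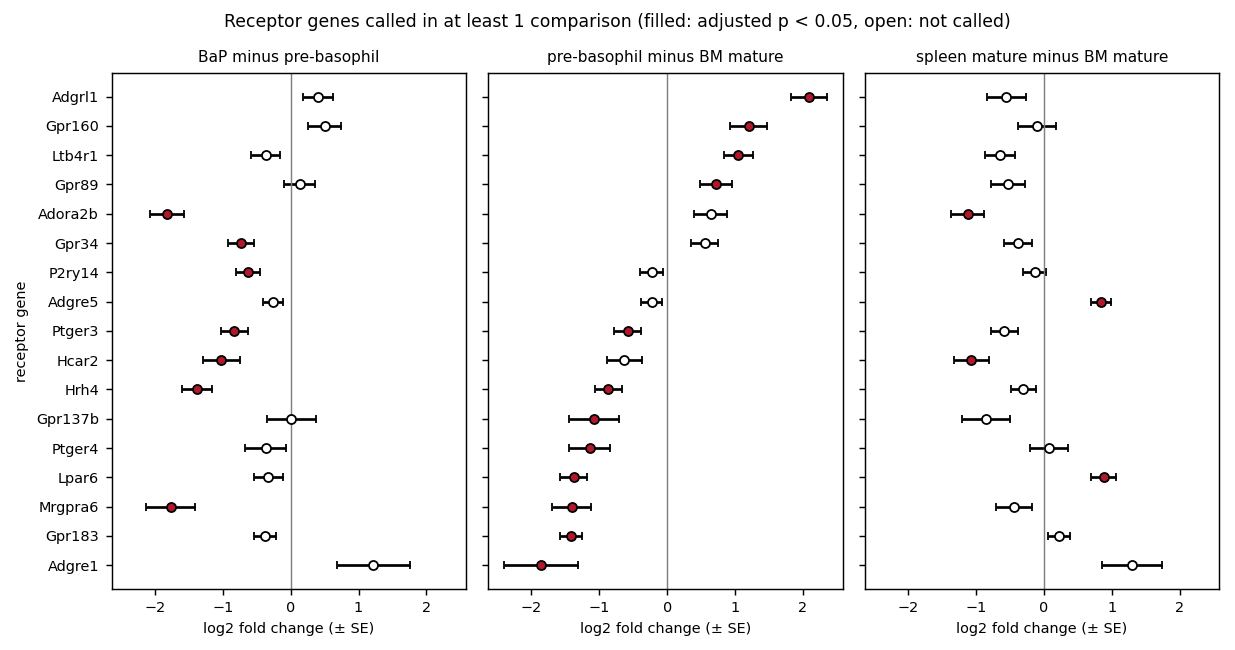
Log2 fold change with its SE (bars) of the 17 named receptor genes called in at least 1 comparison, in BaPs minus pre-basophils (left), pre-basophils minus BM mature basophils (middle) and spleen mature minus BM mature basophils (right). Filled points passed an adjusted p of 0.05. The filled points on the left all lie below 0, and Adgre5 and Lpar6 are the filled points above 0 on the right. The outer panels each share a group with the middle one.

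Over all 4 groups, 33 of the 59 receptor genes tested (55.9%) were called, where 57.8% of all tested genes were. Of these 33, 14 had not passed any pairwise comparison. Of all 33, the mean level was highest in the spleen for 14, in BM mature cells for 8, in BaPs for 7 and in pre-basophils for 4. Of all called genes, 30.6% were highest in the spleen, 15.9% in BM mature cells, 39.5% in BaPs and 14% in pre-basophils. Among the receptors called only over the 4 groups, P2ry2, a Gq-coupled receptor for ATP and UTP, had means of 8.27 CPM in BaPs, 5.27 in pre-basophils, 9.57 in mature cells of the bone marrow and 14.8 in those of the spleen (adjusted p 0.00723). Gpr132, a receptor for oxidised fatty acids, had 7.66, 2.4, 6.72 and 11.8 CPM (adjusted p 0.0369), and its BaP mean was 2.49 CPM without replicate 3. The unnamed receptor genes numbered 47, of which 28 passed the filter and 11 were called over the 4 groups. Their means over all libraries ran from 0.307 to 27.2 CPM, with 24 numbered Gpr genes, 11 adhesion and 8 Mas-related receptors among them.

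Receptors that are well known in allergic effector cells were often barely detected. The cysteinyl leukotriene receptors Cysltr1 and Cysltr2 had at most 2.48 CPM in any library but BaP replicate 3, in which Cysltr2 reached 10.6 CPM. Adora2a and Adora3, the other adenosine receptors, stood at 1.65 to 10.4 CPM apart from 25.6 CPM of Adora2a in BaP replicate 3, so that Adora2b was the adenosine receptor with the highest level per kilobase in every group. P2ry12, the platelet ADP receptor, was at 0 counts in all 3 pre-basophil libraries, where 3 counts would be 0.480 to 0.839 CPM, and at 1.06 to 5.45 CPM in the spleen, where platelet and megakaryocyte markers also summed to more CPM than in the other groups. Gpr35 stood at 0.318 to 1.98 CPM in every library. Hrh1, the receptor on which classical antihistamines act, had 9 counts in all 12 libraries together and fell below the count minimum. The prostaglandin D2 receptor CRTH2 (Ptgdr2) and Mrgprb2 were not analysed here, since no row carried their symbols.

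BaP replicate 3 held some receptor transcripts at higher levels than the other libraries did. In it, 22 of the 85 receptor genes (25.9%) were at least 2-fold higher than in both other BaP libraries, where 11.3% of all 19391 genes with 30 or more counts were, and 10 (11.8%) were at least 2-fold higher than in each of the other 11 libraries, where 3.14% were. Among these 10 were the proton-sensing receptor Gpr65, the adhesion receptors Adgrg5, Adgre4 and Adgrl4, Adora2a, Cysltr2, Gpr171, Gpr18 and Gpr25. Gpr65 stood at 0, 0.471 and 16.1 CPM in BaP replicates 1 to 3, and at 0 to 2.81 CPM elsewhere. Adgrg5 stood at 0, 0.236 and 9.68 CPM, and at 0.8 CPM at most elsewhere. The 30-count minimum included the counts of BaP replicate 3, which were 100 for Adgrg5, 109 for Cysltr2, 59 for Adgre4 and 22 for Gpr25. A gene could be among the 85, or the 19391, largely through this library, so these shares are a description. Markers of other cells in this library summed to 655.9 CPM for T cells (183.7 and 178.2 in replicates 1 and 2), 187.8 for B cells (35.83 and 36.54), 328 for monocytes and macrophages (48.02 and 49.51) and 2155 for neutrophils (195.2 and 749). The NK cell marker Ncr1 was at 94.3 CPM, against 0 and 0.471, and Cd3e of T cells at 31.2 CPM, against 0 and 0.236. Whether these receptor transcripts came from such cells was not tested.

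**Figure D4:**
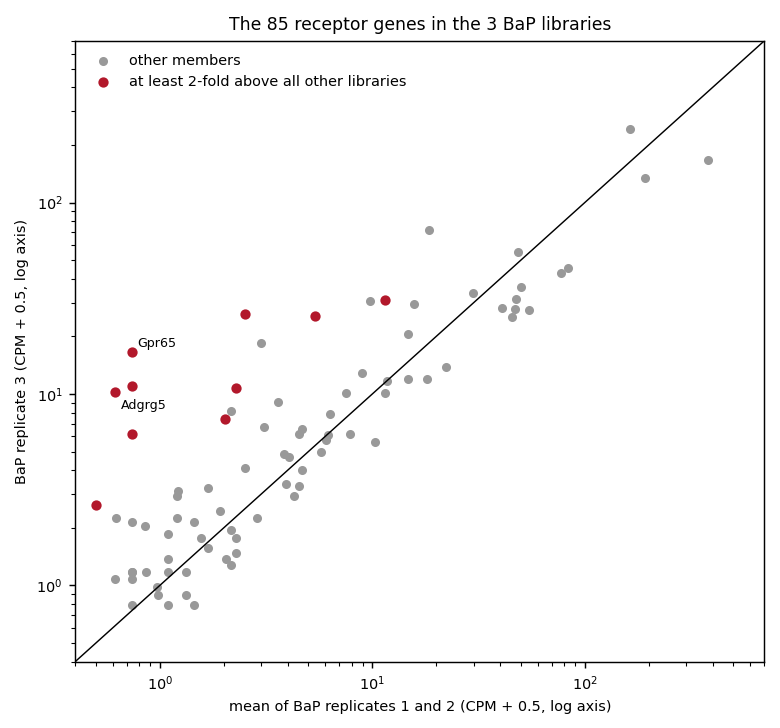
Level of the 85 receptor genes in BaP replicate 3 (vertical) against the mean of BaP replicates 1 and 2 (horizontal), both as CPM + 0.5 on log axes, with a line of equal values. The 10 genes in red, of which Gpr65 and Adgrg5 are labelled, were at least 2-fold higher in replicate 3 than in every other library, and they lie above the line, whereas the most abundant receptors lie near it or below.

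The genes that act behind the receptors were taken as 6 lists, of G protein alpha subunits, beta and gamma subunits, RGS proteins (which end the G protein signal), receptor kinases and arrestins, adenylyl cyclases with PDE4 enzymes, and other effectors. Of the 89 in the table, 67 passed the filter. In BaPs against pre-basophils 9 (13.4%) were called, where 7.08% of all tested genes were. All 9 were lower in BaPs, where 4.29% of all tested genes were, and 0 were higher, where 2.79% were. At an unadjusted p under 0.05, 7 were higher and 17 lower, and DESeq2 and limma-voom called 0 higher and 10 and 9 lower. Shares of all tested genes are not given for these counts. The 9 were called again among 13 when BaP replicate 3 was left out, of which 1 was higher in BaPs (Gng12), where 12.4% of all tested genes were called. In pre-basophils against BM mature cells 18 (26.9%) were called, a share next to the 27.3% of all tested genes. They split into 6 higher, where 16.3% of all tested genes were, and 12 lower, where 11.0% were. In spleen against BM mature cells 11 (16.4%) were called, where 7.83% of all tested genes were. Of these, 3 were higher, beside 3.16% of all tested genes, and 8 lower, beside 4.67%. Beside the 27.3% of all genes called between pre-basophils and BM mature cells, the receptor kinases and arrestins had 5 of 10 called, the RGS proteins 4 of 12, the beta and gamma subunits 3 of 9, the effectors 3 of 17, the alpha subunits 2 of 12 and the cyclases with PDE4 enzymes 1 of 7.

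Rgs1 and Rgs2 encode RGS proteins that act on Gi and Gq signals. Rgs1 stood at 1740, 1833 and 1388 CPM in BaPs and at 3410, 2937 and 4184 CPM in the CD34- stage. In mature cells it stood at 6974, 4041 and 7396 CPM in the bone marrow and at 1980, 1506 and 2009 CPM in the spleen. It passed all 3 tests, with log2 fold changes of -1.09, -0.81 and -1.74 (adjusted p 0.00929, 0.0126 and 0.00122), the first of which was -0.97 without BaP replicate 3 (adjusted p 0.00511). Its level was highest in BM mature cells, and the spleen libraries lay near the BaP ones. Rgs2 had log2 fold changes of -1.03, -1.14 and -1.15 (adjusted p 0.0562, 0.0125 and 0.0364), and the first did not pass without BaP replicate 3 either (-0.90, adjusted p 0.0547). In both genes replicate 2 was the lowest library of pre-basophils, of BM mature cells and of spleen cells, as it was for Hcar2 and Adora2b in the first 2 of these groups.

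Among the G protein subunits, Gng2 had 118, 116 and 106 CPM in pre-basophils and 199, 212 and 217 CPM in BM mature cells (log2 fold change -0.89, adjusted p 8.64e-05), and Gna15, an alpha subunit of the Gq family in blood cells, had 39.7, 42.6 and 38.1 against 67.2, 72.9 and 61.4 CPM (-0.74, adjusted p 0.000732). Gng12 moved the other way, with 383, 345 and 352 against 194, 194 and 177 CPM (0.94, adjusted p 0.0118). It was lower still in the spleen, at 108, 108 and 89.8 CPM (-0.89, adjusted p 0.0443). Between BaPs and pre-basophils its log2 fold change was 0.08 (adjusted p 0.899), and 0.41 without BaP replicate 3 (adjusted p 0.0191). Arrdc4, an arrestin-related gene, was lower in BaPs than in pre-basophils (-0.97, adjusted p 0.00496, and -0.81 and 0.00843 without BaP replicate 3) and lower in pre-basophils than in BM mature cells (-1.41, adjusted p 2.72e-05). Ric8a, a chaperone of alpha subunits, had 46.4, 50.4 and 56.1 CPM in pre-basophils against 96.7, 105 and 105 CPM (-1.01, adjusted p 7.49e-05). The receptor kinase Grk2 was higher in the spleen than in BM mature cells, at 329, 437 and 515 against 208, 234 and 272 CPM (0.84, adjusted p 0.0219). Kcnj2, an inward rectifier potassium channel, was counted in the effector list although it is not a G protein-gated channel. It was at 30.3, 21.7 and 17.3 CPM in BaPs and 108, 66.5 and 72.9 CPM in pre-basophils (-1.85, adjusted p 0.000274, and -1.65 and 3.04e-05 without BaP replicate 3). The protein kinase A subunit Prkacb was lower in BaPs than in pre-basophils (-0.74, adjusted p 0.00175, and -0.70 and 0.000596 without BaP replicate 3) and lower in the spleen than in BM mature cells (-0.61, adjusted p 0.00744).

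**Figure D5:**
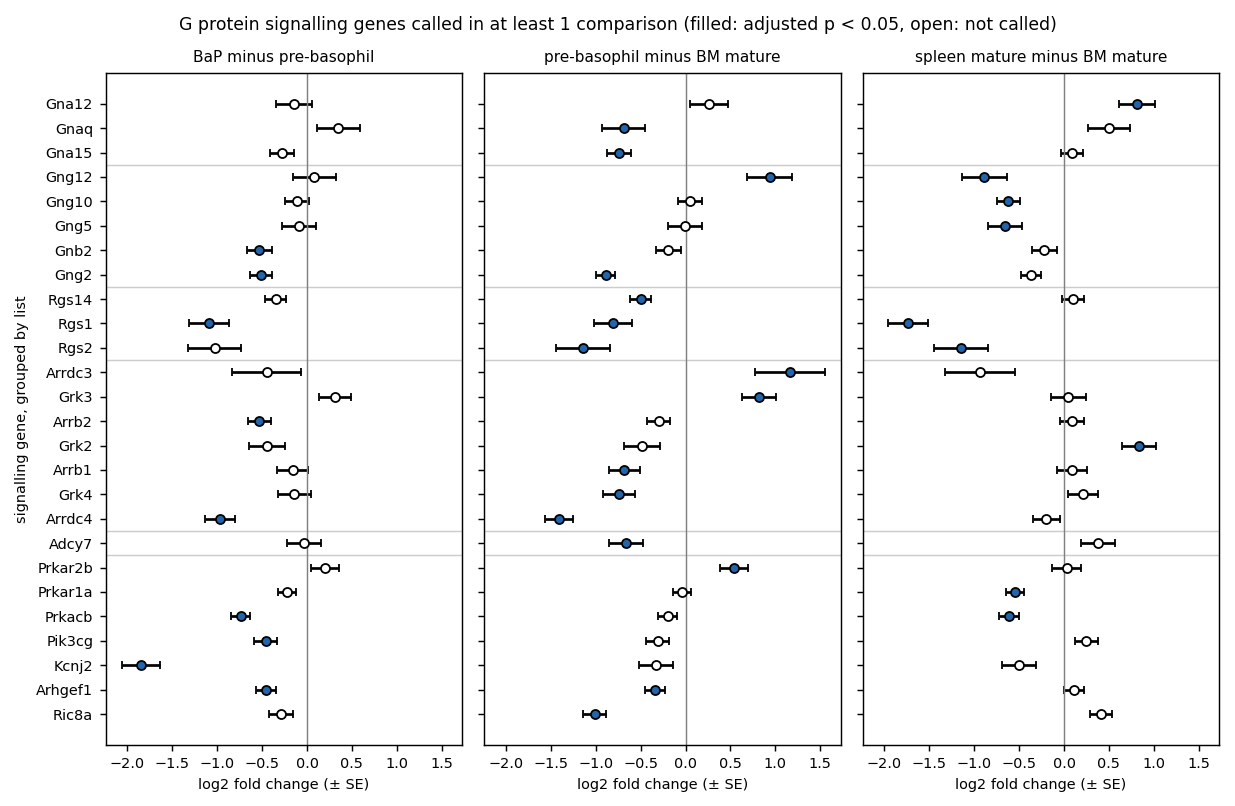
Log2 fold change with its SE (bars) of the 26 G protein signalling genes that were called in at least 1 comparison and had at least 20 CPM in their highest group, by list (grey lines), in the same 3 comparisons. Filled points passed an adjusted p of 0.05. In the left panel every filled point is below 0, and Kcnj2 is the farthest from it at -1.85.

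The count minimum cut through a run of scarcely detected genes. Just inside it lay Gpr55 with 30 counts and Mrgpra2a and Gpr25 with 31, and just outside it Gpr52 and Gpr15 with 29. In Gpr25 22 of the 31 counts, and in Gpr15 19 of the 29, came from BaP replicate 3. Exons of 26 of the 85 receptor genes overlap those of another annotated gene, and whether the counting used the strand was not given in the sources used here. Beside those marked above, these include Gpr89 (largest overlap 1333 bases), Ptger4 (1015), P2ry1 (992) and, on the same strand, Adora3 (779). Near-identical copies make the split of reads uncertain for the Mrgpra cluster on chromosome 7, for P2ry10 and P2ry10b and for Gpr137b and its pseudogene.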

How the data were processed

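The authors sorted the cells, captured polyadenylated RNA, amplified cDNA by the TAS-Seq workflow and sequenced it on an Illumina instrument. Per the study's methods, Cutadapt 3.4 trimmed the reads, Bowtie2 2.4.2 aligned them to reference RNA of GRCm38, and reads were counted per gene. The labels name GRCm39 (mm39) instead, and coordinates here are those of GENCODE M21 on GRCm38. The deposited table holds raw counts per gene without normalization. PCR duplicates were counted, so a floor of 3 counts covers counting error only.

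Groups were taken from the sample titles. In R 4.3.3, edgeR 4.0.16 was used to filter genes (filterByExpr), to scale libraries by TMM (factors 0.844 to 1.30) and to fit 1 quasi-likelihood model to the 12 libraries. The procedure was tested on simulated data. A gene was called at an adjusted p under 0.05 (Benjamini-Hochberg over the 15083 genes tested). The study's package TCC was not used, but its scaling scheme was rebuilt as an alternative. DESeq2 1.42.0, limma-voom (limma 3.58.1), other scalings, no filter, a 2-fold minimum, left-out libraries and a replicate block were further alternatives. Each library was left out for the count over the 4 groups and for comparisons of its own group. BaP replicate 3 was left out for all comparisons.

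Deviations from group means correlated by 0.12 to 0.26 between bone marrow libraries of the same number. The replicate block takes these numbers as pairs, whereas the main fit, which gave the calls, does not. This pairing comes from the data, not from the labels. Between BM and spleen mature libraries the correlations were 0.01 to 0.03. Replicate libraries differed by more than sampling noise (chi-square per degree of freedom 4.16 to 35).

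Receptors named with values were those called in a pairwise comparison with at least 5 CPM in the highest group, the 10 with the highest mean, and a list of 37 known in basophils, mast cells or eosinophils, of which 31 met the count minimum. Signalling genes were named where called with at least 20 CPM, a selection of those being printed. The receptors, lists and rules were chosen with earlier results of these data known.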

Additional observations from a re-analysis of the deposited data

How the results depend on the processing

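The number of receptor genes called moved with the settings. Shares of all tested genes called are not set beside the counts of this section, which describe the settings only. For BaPs against pre-basophils (8), it was 21 without a filter on low counts (10 higher, 11 lower), 2 in a fit of these groups alone, 5 with a 2-fold minimum, and 3 to 14 when 1 library was left out. For pre-basophils against BM mature basophils (13), it was 20 without a filter, 21 in a fit of these groups alone, and 8 to 23 when 1 library was left out. For spleen against BM mature basophils (4), it was 12 without a filter, 12 in a fit of these groups alone, 2 with a 2-fold minimum, and 1 to 15 when 1 library was left out. The upper ends of the last pair of ranges, 23 and 15, came from leaving out BaP replicate 3, an alternative chosen after seeing the data. Why the other settings moved these counts was not tested. The count over the 4 groups (33) ran from 27 to 45. The signalling genes called, recounted after seeing the data, numbered 4 to 17 between BaPs and pre-basophils (9), 11 to 29 between pre-basophils and BM mature cells (18) and 3 to 26 between spleen and BM mature cells (11). Without any 1 pre-basophil library the first of these counts was 4. Leaving out BaP replicate 3 gave 28 and 25 for the other comparisons. Between pre-basophils and BM mature cells it was 11 without BM mature replicate 3, and between spleen and BM mature cells it was 3 without BM mature replicate 1 or spleen replicate 3 and 5 without replicate 2 of either group or BM mature replicate 3.

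With a replicate block, the counts were 11, 16, 6 and 33. For spleen against BM mature basophils the libraries share only a number, and there the block moved the count from 4 to 6. Beyond the calls given with the block in the report, it changed none of the other named receptors' calls within the bone marrow. Of 23 calls of named receptors, 9 held under every alternative run, the 2-fold minimum included, and 14 were lost under at least 1. Among the latter, 2 (Adgre5 in the spleen, and Hrh4 between pre-basophils and BM mature cells) were lost only to the 2-fold minimum, and 0 of the 23 changed direction. A minimum of 10 or 100 counts gave 109 or 60 receptor genes. Genes under 30 counts were not assessed at this depth.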
